A study of Mus musculus with 9 samples.

Results

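Tuft cells are rare epithelial cells of the gut that sense the content of the lumen, and 10 genes that mark them were followed through 9 libraries of mouse colon RNA. The genes, Dclk1, Trpm5, Pou2f3, Sh2d6, Il25, Avil, Alox5, Gnat3, Gfi1b and Sh2d7, were found by symbol among the 54491 rows of the deposited table, and all 10 were present. Of these, 8 were among the 17907 genes with enough signal to be tested (at least 0.5 FPKM in at least 3 libraries; FPKM is the number of sequenced fragments scaled by transcript length and library depth). Il25 and Gfi1b fell short of that level and are given by their values and exact permutation tests, outside the fit across all genes. All mice were C57BL/6, entered the experiment at 6 weeks of age in groups of 15, and gave colon at postnatal day 98. The control group had 3 libraries, the group on a high-fat diet (HFD) had 3, and the group on that diet with the gut bacterium Papillibacter cinnamivorans given by gavage, a dose through a tube into the stomach, had 3. Gavage is named for the bacterium group alone, so the bacterium and the procedure cannot be told apart. The labels say neither which stretch of colon was taken nor that the libraries of a group came from separate mice, so p-values measure the spread between libraries.

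A tuft cell forms under the control of the transcription factor Pou2f3 and carries a signalling chain much like that of taste cells, in which a receptor acts through a G protein, phospholipase C and calcium to open the channel Trpm5. An activated tuft cell releases the cytokine Il25 and lipid mediators made by Alox5, which act on innate lymphoid cells of the mucosa, and these answer with type 2 cytokines that in turn raise tuft and goblet cell numbers. The genes Avil, Dclk1, Sh2d6 and Sh2d7, which encode a structural protein, a kinase and adaptors, are widely used to recognise the cell.

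RefSeq start-site windows (250 bases before to 50 after the start, build GRCm38.p6) were at hand for 8 of the 10 genes, with 9 entries because Dclk1 had 2. The reads were aligned to another build, GRCm39, and the deposited table has no coordinates, so the windows show sequence context only. Motifs searched, on both strands, were the octamer core ATGCAAA, bound by POU factors such as Pou2f3, the TATA box TATAAA and the CCAAT box CCAAT. The windows of Avil, Sh2d6 and Sh2d7 are printed because Avil and Sh2d6 were the genes with lower levels in HFD and Sh2d7 had the smallest adjusted p between the HFD groups. Matches are in capitals.
Avil, chr10:127000459-127000758, plus strand: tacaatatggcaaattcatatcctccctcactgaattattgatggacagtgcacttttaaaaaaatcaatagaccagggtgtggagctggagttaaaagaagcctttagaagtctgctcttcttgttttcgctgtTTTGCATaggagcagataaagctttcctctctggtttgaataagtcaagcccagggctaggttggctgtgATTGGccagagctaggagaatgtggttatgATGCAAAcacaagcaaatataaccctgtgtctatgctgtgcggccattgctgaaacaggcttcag
Sh2d6, chr6:72519987-72520286, minus strand: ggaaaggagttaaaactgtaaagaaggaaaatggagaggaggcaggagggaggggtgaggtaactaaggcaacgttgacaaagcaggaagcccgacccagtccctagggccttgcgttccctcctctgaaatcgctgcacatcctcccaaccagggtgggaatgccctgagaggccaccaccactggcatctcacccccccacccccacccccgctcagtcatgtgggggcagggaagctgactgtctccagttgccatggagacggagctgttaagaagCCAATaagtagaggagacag
Sh2d7, chr9:54533873-54534172, plus strand: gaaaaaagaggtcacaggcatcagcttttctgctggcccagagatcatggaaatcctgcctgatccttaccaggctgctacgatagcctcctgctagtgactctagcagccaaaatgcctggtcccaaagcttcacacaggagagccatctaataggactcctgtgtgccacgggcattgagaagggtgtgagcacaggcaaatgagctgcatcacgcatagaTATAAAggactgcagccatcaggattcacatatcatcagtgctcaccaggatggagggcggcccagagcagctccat
Avil alone among the 9 windows held ATGCAAA, once as written, starting 15 bases before the start site, and once on the opposite strand. That core was present in 4.63% of all 32851 windows of this length, and the longer form ATGCAAAT was in 0 of the 9 against 1.74% of all. Sh2d7 alone held TATAAA, found in 13.6% of all windows. CCAAT was in 5 of the 9 windows (Gfi1b, Dclk1, Gnat3, Sh2d6 and Avil) against 37.4% of all. These are matches of letters, not binding sites.

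Library depth, recovered from the FPKM values as whole fragments, was 15140000 to 17000000 fragments in control, 17510000 to 18750000 in HFD and 13980000 to 17580000 with the bacterium. The libraries of HFD stood apart in genes that mark position along the body axis. The summed level of 6 posterior Hox genes was 261 to 281 FPKM in the 3 HFD libraries, 5.50 to 34.3 in control and 14.7 to 15.8 with the bacterium. The 7 genes from Hoxb2 to Hoxb8 summed to 4.65 to 5.51 FPKM in HFD, 25.6 to 131 in control and 62.8 to 100 with the bacterium. Hoxd12 was at 0 in all 3 control libraries and all 3 with the bacterium. Position along the colon and the HFD group therefore cannot be told apart in any comparison that uses the HFD libraries. Control replicate 1 also stood apart, with smooth muscle genes summing to 6692 FPKM against 1284 and 1825 in the other control libraries. Its posterior Hox sum was 34.3 FPKM against 7.59 and 5.50, its sum of Hoxb2 to Hoxb8 25.6 against 107 and 131, and its sum of neuron and glia genes 182 against 102 and 71.1. It had the highest control level of 8 of the 10 tuft cell genes.

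The tuft cell genes were at low levels throughout, and in this bulk tissue fewer cells of a type and less RNA per cell cannot be told apart. Summed over the 10 genes, the level was 11.5 to 20.5 FPKM in control, 6.43 to 7.62 in HFD and 13.8 to 19.8 with the bacterium. In every group Sh2d6 had the highest mean, Avil came next and Dclk1 followed. In control the ranges of these genes did not overlap one another, in HFD those of Sh2d6 and Avil overlapped, and with the bacterium those of Avil and Dclk1 did. Below Dclk1, most neighbours in the order overlapped. Il25 or Gfi1b was last in control and with the bacterium, and in HFD Pou2f3 and Il25 were the lowest.

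**Figure D1:**
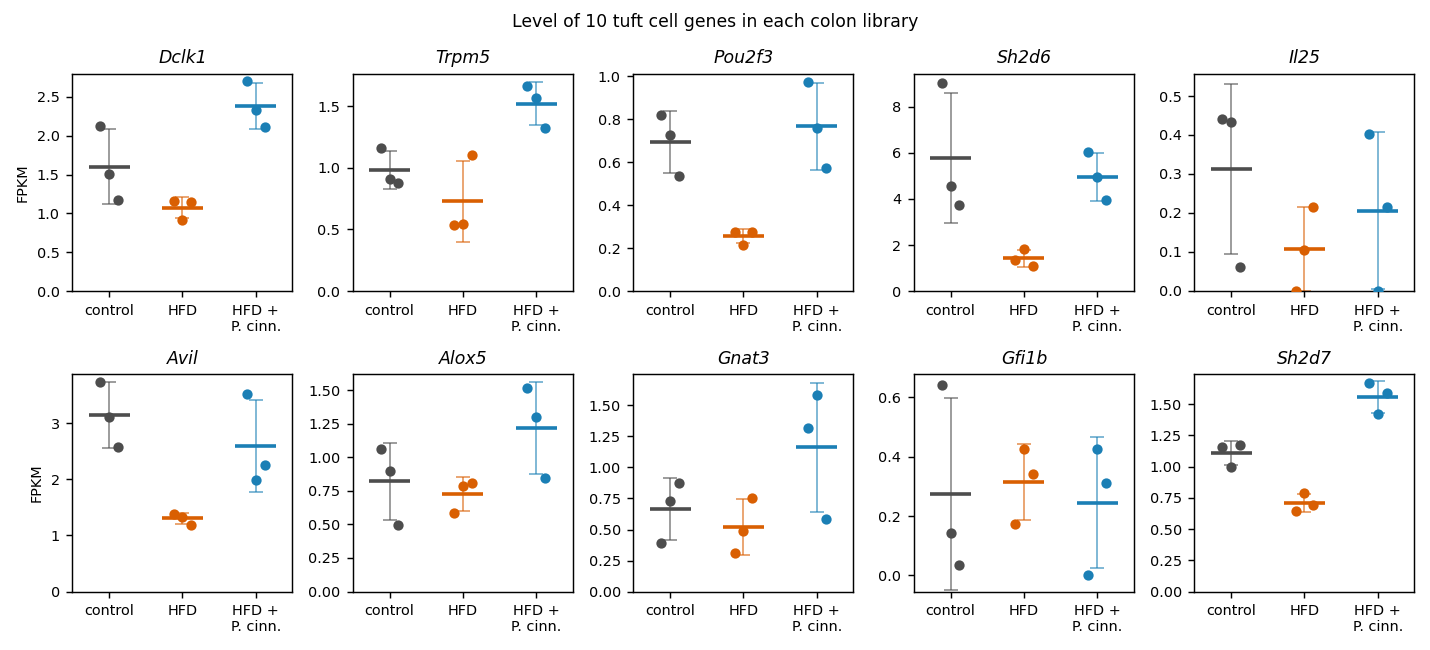
Level of each of the 10 tuft cell genes in FPKM (vertical axis, a separate linear scale per gene) in the 3 control, 3 HFD and 3 HFD with P. cinnamivorans libraries; points are libraries, horizontal bars means and error bars SD. Sh2d6 and Avil lay between 1.08 and 1.81 FPKM in HFD and above that in every other library, whereas Gfi1b and Il25 overlapped between all groups.

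Pou2f3, the master regulator of the tuft cell lineage, was measured at 0.819, 0.726 and 0.535 FPKM in control replicates 1, 2 and 3. The HFD libraries (replicates 1, 2 and 4) had 0.276, 0.217 and 0.277 FPKM, which is 12 to 16 fragments each. With the bacterium (replicates 1, 3 and 4) the level was 0.973, 0.758 and 0.571 FPKM. All HFD libraries lay below all others, and the control and bacterium ranges overlapped. None of the HFD libraries reached 0.5 FPKM, so Pou2f3 was tested only because of the other groups. The means were 0.693 ± 0.145 (SD, n = 3), 0.257 ± 0.0348 and 0.767 ± 0.201 FPKM. Differences are given as log2(FPKM + 1), where the added 1 shrinks the change of weakly expressed genes. HFD minus control was -0.43 (SE 0.14) and the bacterium group minus HFD was 0.49 (SE 0.14). Since the groups with higher levels brought Pou2f3 past the filter, these differences are a description, and the counts over the tuft cell genes are also given without it.

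Gfi1b, a zinc finger repressor known from tuft cells and from megakaryocyte and erythroid cells, followed no group. Its 3 control libraries had 0.643, 0.144 and 0.0361 FPKM, from 20, 4 and 1 fragments. In HFD it was 0.175, 0.427 and 0.343 FPKM. With the bacterium it was 0, 0.426 and 0.311 FPKM, where the floor of 3 fragments in the library listed at 0 would be 0.117 FPKM. The groups overlapped in every pair, and the exact two-sided permutation p was 0.9 for HFD against control, 0.6 for the bacterium against HFD and 0.9 for the bacterium against control, with 0.1 the smallest that 3 against 3 can give.

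Trpm5, the calcium-activated cation channel at the end of the taste-type chain, had 1.16, 0.907 and 0.878 FPKM in control. In HFD it had 0.533, 0.540 and 1.11 FPKM, so replicate 4 lay inside the control range while the other HFD libraries lay below it. With the bacterium the level was 1.67, 1.57 and 1.33 FPKM, above every control and every HFD library. The spread within HFD, 45.3% of the mean, exceeded the 11% that counting alone gives for its fragments. HFD minus control was -0.21 (SE 0.16, limma adjusted p = 0.37). For the bacterium group minus HFD it was 0.56 (SE 0.16, limma adjusted p = 0.0497), a 2.09-fold difference of mean FPKM that passed the threshold narrowly and under 4 of 19 alternative settings.

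Gnat3, the alpha subunit of the taste G protein gustducin, had 0.389, 0.727 and 0.874 FPKM in control, 0.313, 0.492 and 0.755 in HFD and 1.31, 1.59 and 0.585 with the bacterium. These levels rest on 8 to 36 fragments per library. No pair of groups was free of overlap, and replicate 4 of the bacterium group lay within the HFD range. The bacterium group minus HFD was 0.49 (SE 0.21, limma adjusted p = 0.18) and HFD minus control was -0.13 (SE 0.21, limma adjusted p = 0.71).

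Il25, the alarm cytokine of the tuft cell, was near the limit of detection. Control had 0.442, 0.434 and 0.0621 FPKM, from 8, 7 and 1 fragments. HFD had 0, 0.105 and 0.215 FPKM, and with the bacterium the level was 0.403, 0 and 0.214 FPKM. A library at 0 allows up to 0.150 FPKM in HFD replicate 1 and 0.169 in replicate 3 of the bacterium group, taking 3 fragments as the floor, which covers counting error only. No difference was detectable at this depth. The exact two-sided permutation p was 0.3 for HFD against control, 0.7 for the bacterium against HFD and 0.5 for the bacterium against control.

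Alox5, the lipoxygenase that starts leukotriene synthesis in tuft cells and in leukocytes, had 1.06, 0.900 and 0.499 FPKM in control and 0.584, 0.788 and 0.807 in HFD. With the bacterium it had 1.52, 1.30 and 0.845 FPKM. The bacterium libraries all lay above the HFD libraries, by a small margin in replicate 4, and control spanned the HFD range. HFD minus control was -0.07 (SE 0.17, limma adjusted p = 0.82), a sign that turned with other scalings (0.09 after scaling to TPM and 0.03 without mitochondrial and immunoglobulin genes) and without control replicate 1 (0.03). For the bacterium group minus HFD it was 0.35 (SE 0.17, limma adjusted p = 0.22).

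Avil, which encodes advillin, an actin-binding protein of the villin family, had 3.74, 3.11 and 2.57 FPKM in control. In HFD the level was 1.38, 1.33 and 1.19 FPKM, a spread smaller than counting error. With the bacterium it was 3.52, 1.98 and 2.26 FPKM. The HFD libraries were below all others, and 2 of 3 bacterium libraries were below every control library. The means of 3.14 ± 0.587 and 1.30 ± 0.0969 FPKM in control and HFD differed 2.41-fold, with a log2 difference of -0.84 (SE 0.18, limma adjusted p = 0.012). For the bacterium group minus HFD it was 0.62 (SE 0.18, limma adjusted p = 0.054), which did not pass.

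Sh2d6, which encodes an adaptor with an SH2 domain, had 9.01, 4.57 and 3.75 FPKM in control. In HFD it had 1.36, 1.81 and 1.08 FPKM. With the bacterium it had 6.01, 4.94 and 3.94 FPKM. Control replicate 1 held more than the other control libraries together, HFD lay below every other library, and the bacterium range fell inside the control range. The mean was 5.78 ± 2.83 FPKM in control and 1.42 ± 0.370 in HFD, so it was 4.08-fold lower in HFD, with -1.42 on the log2 scale (SE 0.27, limma adjusted p = 0.0082). The difference without control replicate 1 was -1.10, and it still passed. With the bacterium the mean was 4.96 ± 1.04 FPKM, 3.50-fold above HFD (1.30 on the log2 scale, SE 0.27, limma adjusted p = 0.016), a call lost by leaving out HFD replicate 1, HFD replicate 4 or the bacterium group's replicate 1 (limma adjusted p 0.063 to 0.064).

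Sh2d7, a second adaptor with an SH2 domain, showed a spread within groups smaller than counting error in each (8.2% to 10% of the mean). Control had 1.16, 0.997 and 1.17 FPKM, HFD 0.648, 0.787 and 0.694, and the bacterium group 1.67, 1.42 and 1.59. The groups fell into separate ranges, with HFD lowest and the bacterium group highest. For the bacterium group minus HFD the log2 difference was 0.58 (SE 0.11, limma adjusted p = 0.010), a 2.20-fold difference of means, and HFD minus control was -0.30 (SE 0.11, limma adjusted p = 0.087). The call between the HFD groups was lost without HFD replicate 1 (limma adjusted p = 0.061) and with replicate number as a block in the fit (limma adjusted p = 0.075). Sh2d7 shares genomic sequence with Cib2 on the opposite strand, and whether the counting used strand is not stated. Cib2 differed by -0.98 (SE 0.34, limma adjusted p = 0.076) for HFD minus control and by 0.995 (SE 0.34, limma adjusted p = 0.10) for the bacterium minus HFD.

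Dclk1, a microtubule-associated kinase used as a tuft cell marker and also known from neurons, had 2.12, 1.51 and 1.17 FPKM in control. HFD had 1.16, 0.919 and 1.14 FPKM, and the bacterium group 2.70, 2.33 and 2.12 FPKM. The HFD libraries lay below control by a margin of hundredths of an FPKM, and the bacterium libraries lay clear of HFD. For the bacterium group minus HFD the log2 difference was 0.70 (SE 0.15, limma adjusted p = 0.019), a 2.22-fold difference of means. This call was lost when HFD replicate 1, 2 or 4 or the bacterium group's replicate 1 was left out (limma adjusted p 0.059 to 0.09). It was also lost with no filter (limma adjusted p 0.051), with TPM scaling (0.063) and with replicate number as a block in the fit. HFD minus control was -0.31 (SE 0.15, limma adjusted p = 0.19).

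The first comparison, HFD against control, concerns the diet. Sh2d6 and Avil were called lower in HFD, 2 of the 8 tested genes, and 0 were called higher. Over all 17907 genes tested, 9.11% were called lower, 10.6% higher and 19.7% in either direction (limma, Benjamini-Hochberg adjusted p below 0.05). All 8 log2 differences were below 0, although Alox5 was above 0 with either rescaling named above. Their median was -0.31, beside -0.001 over all genes tested. The groups were free of overlap, with HFD lower, for 5 of the 8 (Dclk1, Pou2f3, Sh2d6, Avil and Sh2d7), against 20.1% of all genes tested, and with HFD higher for 0 of the 8, against 21.9%. Without Pou2f3, 2 of 7 were called lower, 4 of 7 were free of overlap and the median was -0.30. The diet and the positional difference given by the Hox genes cannot be told apart here. Avil lost its call without HFD replicate 4 (limma adjusted p = 0.053), and Sh2d6 kept it without each library in turn. Both passed without control replicate 1.

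The comparison of the bacterium group with HFD asks what the gavaged bacterium changed on the diet. Dclk1, Trpm5, Pou2f3, Sh2d6 and Sh2d7 were called higher, 5 of 8, and 0 were called lower, beside 4.54% higher, 7.6% lower and 12.1% in either direction over all genes tested. Pou2f3 passed the filter only through the groups where it was higher, and without it 4 of 7 were called higher, 6 of 7 lay without overlap and the median was 0.58. All 8 differences were above 0 with a median of 0.57, against -0.01 over all genes. The bacterium libraries lay above the HFD libraries without overlap for 7 of the 8, all but Gnat3, against 18.7% of all genes tested, and below them for 0, against 20.3%. This comparison shares the 3 HFD libraries with the one above, so the opposite signs of the same genes are not separate observations, and the positional difference enters it too. The count of 5 rested on single libraries. Without HFD replicate 1, 0 of the 8 passed in limma, it was 1 without the bacterium group's replicate 1, 2 when HFD replicate 2 or 4 was left out, and 3 when control replicate 2, control replicate 3 or the bacterium group's replicate 4 was. Leaving out control replicate 1 gave 6, with Avil added. All 8 log2 differences stayed above 0 without each library in turn.

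The comparison of the bacterium group with control takes no level from the HFD libraries, but these enter the shared estimate of spread and the filter. The number of genes called in it, 198, was 2 with the pair of groups fitted alone, 0 without HFD replicate 1 and 3 without HFD replicate 2 (limma, 3033 at an unadjusted p below 0.05 where there were 0). Here 0 of the 8 genes passed in limma or in limma-voom on recovered fragments, beside 1.11% of all genes called in either direction, 0.262% higher and 0.843% lower. At an unadjusted limma p below 0.05 there were 2, Dclk1 (log2 difference 0.39, SE 0.15, adjusted p = 0.21) and Sh2d7 (0.28, SE 0.11, adjusted p = 0.21). Trpm5 and Sh2d7 lay above control without overlap, against 9.86% of all genes, and 0 lay below it, against 11.9%. Of the 8 differences 6 were above 0 and the median was 0.28, beside -0.01 over all genes. The 95% intervals leave room for sizeable differences, -0.74 to 0.50 for Sh2d6 and -0.62 to 0.18 for Avil, the only genes below 0. Sh2d6 was above 0 without mitochondrial and immunoglobulin genes (0.05) and without control replicate 1 (0.20), and 0 of the 8 passed in limma without that library.

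**Figure D2:**
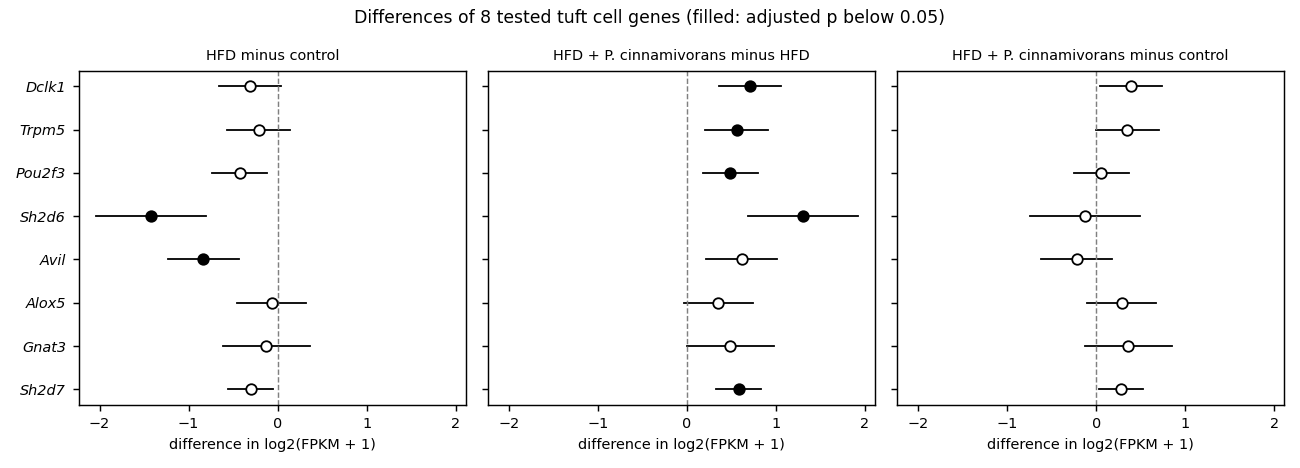
Difference in log2(FPKM + 1) for the 8 tested tuft cell genes in each comparison, with 95% intervals from limma; filled points passed an adjusted p below 0.05. Every point lies left of 0 for HFD minus control (Alox5 crossed 0 with other scalings) and right of 0 for the bacterium minus HFD, and none passed for the bacterium minus control.

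The proportions between tuft cell genes within a library do not depend on how libraries are scaled. The ratios given here were chosen after Avil and Sh2d6 had been seen to differ most between HFD and control, so they are a description with no test. Per unit of Dclk1, Avil stood at 1.76, 2.06 and 2.19 in control, 1.19, 1.45 and 1.04 in HFD, and 1.30, 0.849 and 1.07 with the bacterium. Both HFD groups were below control without overlap, and they overlapped each other. Per unit of Dclk1, Sh2d6 stood at 4.25, 3.03 and 3.19 in control, 1.17, 1.98 and 0.946 in HFD, and 2.22, 2.12 and 1.86 with the bacterium. Again both HFD groups were below every control library and they overlapped each other. Control replicates 2 and 3 by themselves also lay above both HFD groups in these ratios. With Trpm5 in place of Dclk1, the same order held. Avil per Trpm5 was 2.92 to 3.42 in control, 1.08 to 2.59 in HFD and 1.26 to 2.11 with the bacterium, and Sh2d6 per Trpm5 was 4.28 to 7.78, 0.977 to 3.36 and 2.97 to 3.61.

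**Figure D3:**
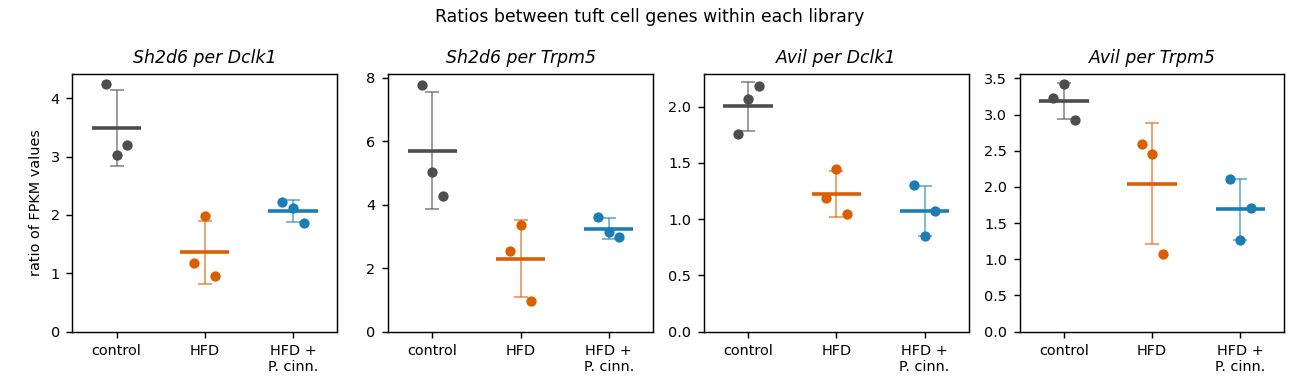
Ratio of FPKM values within each library (vertical axis, no unit) for Sh2d6 and Avil per Dclk1 and per Trpm5; points are libraries, horizontal bars means, error bars SD. In each panel the 3 control libraries lie above all 6 libraries of the HFD groups.

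Relative to the epithelium the picture of control changed. The 10 genes summed per 1000 FPKM of 10 general epithelial genes (Epcam, keratins, Cdh1 and others) came to 4.47, 1.88 and 1.35 in control, 1.49, 1.45 and 1.69 in HFD, and 3.74, 3.23 and 3.30 with the bacterium. Control replicates 2 and 3 lay on either side of the HFD range, and replicate 1 was far above it. The bacterium group stayed above HFD in every library. The epithelial genes themselves summed to 4593 to 8529 FPKM in control, 4321 to 5128 in HFD and 4170 to 5294 with the bacterium. Of these 10, Cdx2, Krt20 and Vil1 were called lower in HFD than in control and 0 higher, beside 9.11% and 10.6% of all genes tested. Cdx2 and Krt20 were called higher with the bacterium than in HFD, and 0 lower, beside 4.54% and 7.6%. Krt20 averaged 903 FPKM in control, 184 in HFD and 492 with the bacterium, so the divisor itself differed between the groups.

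Another 42 genes known from tuft cells, of which 37 were tested, were counted in the same fit. In HFD against control 13 of the 37 were called higher and 2 lower, with a median log2 difference of 0.22, beside 10.6% higher and 9.11% lower over all genes tested. In the bacterium group against HFD 3 were called higher and 9 lower, with a median of -0.15, beside 4.54% and 7.6%. Between the bacterium group and control 0 were called by limma, with 5 at an unadjusted p below 0.05. Of the genes called higher in HFD, all but Ascl2 and Sox9 are also known from leukocytes.

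Among 10 genes of taste-type signal transduction, 7 were tested and Plcg2 and Plcb2 were higher in HFD, beside 10.6% of all genes tested. Plcg2, a phospholipase C also used by B cells, was at 6.45 ± 1.25 against 1.96 ± 0.202 FPKM in control and 1.98 ± 0.443 with the bacterium. HFD minus control was 1.32 (SE 0.16, limma adjusted p = 0.00098). Plcb2, the taste phospholipase, had 1.45 ± 0.110 FPKM in HFD and 0.655 ± 0.111 in control, and differed by 0.57 (SE 0.14, limma adjusted p = 0.023). Rgs13, a regulator of G protein signalling, was at 5.49 ± 1.52 FPKM with the bacterium against 2.57 ± 0.334 in HFD (0.84, SE 0.20, limma adjusted p = 0.028), and Kctd12, a potassium channel domain protein, at 27.0 ± 6.65 against 15.1 ± 1.43 FPKM (0.78, SE 0.18, limma adjusted p = 0.026). For the bacterium against HFD 2 of the 7 were called higher and 1 (Plcg2) lower, beside 4.54% and 7.6% of all genes tested. The partners Gnb3, Gng13 and the receptor gene Tas1r1 did not pass the filter on low values.

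All 5 eicosanoid genes were tested, and 2 were higher in HFD than in control, beside 10.6% of all genes tested. These were the prostaglandin D synthase gene Hpgds (4.58 ± 0.278 against 1.96 ± 0.101 FPKM) and the phospholipase gene Pla2g4a (9.61 ± 0.552 against 4.87 ± 0.887 FPKM). Between the bacterium group and HFD 0 of 5 passed in limma, with 2 at an unadjusted p below 0.05. Of 6 regulators, Spib, Ascl2 and Sox9 were higher in HFD, beside the same 10.6%. Spib, a transcription factor shared with B cells, M cells and plasmacytoid dendritic cells, had 11.5 ± 1.07 FPKM in HFD, 2.47 ± 0.415 in control and 2.87 ± 0.933 with the bacterium. Ascl2, a stem cell factor, and Spib were also lower with the bacterium than in HFD, 2 of 6, beside 7.6% of all genes tested.

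Of 9 kinases and adaptors of tuft cells, 5 that are also used by blood cells (Inpp5d, Pik3cg, Fyb, Vav1 and Ptpn6) were higher in HFD and lower again with the bacterium. The shares over all genes tested were 10.6% higher for HFD against control and 7.6% lower for the bacterium against HFD. Matk, a kinase named after its values were seen, was lower in HFD and higher again with the bacterium, at 1.59, 1.15 and 1.21 FPKM in control, 0.546, 0.522 and 0.559 in HFD and 1.56, 0.914 and 1.56 with the bacterium. Its log2 differences were -0.58 (SE 0.15, limma adjusted p = 0.027) and 0.59 (SE 0.15, limma adjusted p = 0.035). Among 12 surface and other genes, 10 were tested. For HFD against control 1 was called higher and 1 lower, beside 10.6% and 9.11% of all genes tested. With the bacterium against HFD 0 were called higher and 1 (Lrmp) lower, beside 4.54% and 7.6%. Lrmp, an endoplasmic reticulum protein of lymphocytes and tuft cells, had 12.6 ± 1.64 FPKM in HFD, 2.14 ± 1.004 in control and 2.11 ± 0.116 with the bacterium, and Nrgn, a calmodulin-binding protein, was lower in HFD than in control (0.826 ± 0.284 against 3.71 ± 2.38 FPKM). Chat and Nebl did not pass the filter.

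**Figure D4:**
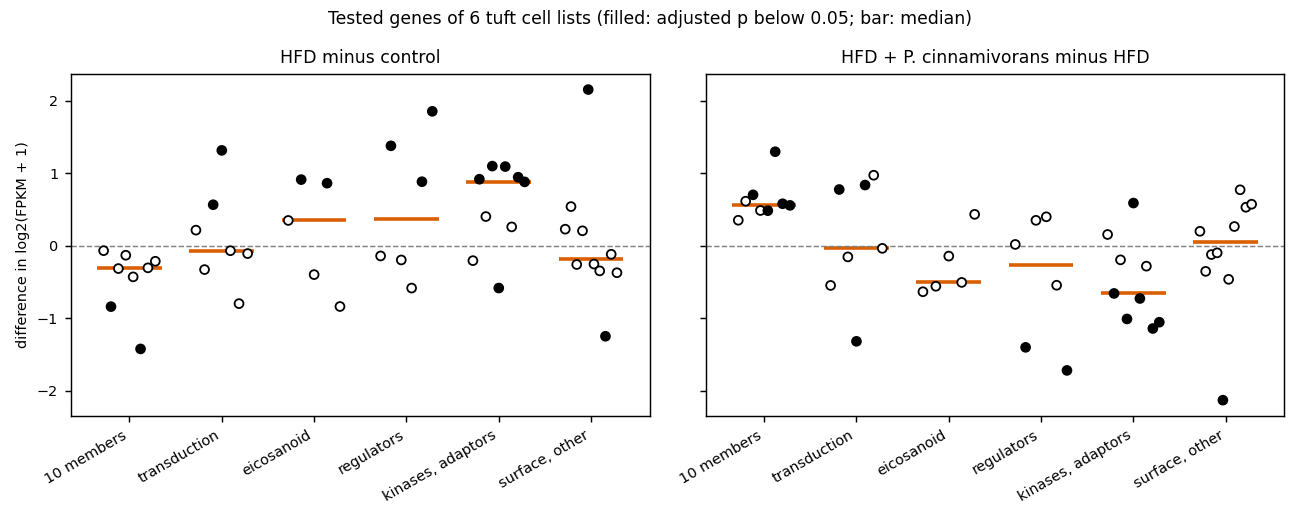
Difference in log2(FPKM + 1) of each tested gene in 6 groups of tuft cell genes, for HFD minus control and for the bacterium minus HFD; filled points passed a limma adjusted p below 0.05 and bars are medians. The 8 tested members lie below 0 and then above 0 (Alox5 turned above 0 in HFD minus control with other scalings), whereas 5 of 6 called kinases and adaptors lie on the other side.

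Markers of other cells moved with the groups. The summed level of 12 macrophage and dendritic cell genes, none at 0, was 238 to 302 FPKM in control, 656 to 750 in HFD and 185 to 283 with the bacterium. Of these 12, 10 were higher in HFD than in control and 11 lower with the bacterium than in HFD, beside 10.6% and 7.6% of all genes tested. The 9 genes of B and plasma cells were called higher in HFD than in control, 9 of 9, beside 10.6% of all genes tested. Their sum was 110 to 190 FPKM in control, 901 to 1142 in HFD and 201 to 414 with the bacterium. Mzb1 and Pax5 were listed at 0 in at least 1 control library. Pax5 averaged 0.115 FPKM in control, 0.128 with the bacterium and 2.45 in HFD, so it passed the filter only through HFD. Mzb1 averaged 0.0827 FPKM in control and 0.904 in HFD. For Pax5 and Mzb1 the rise is therefore a description. Both lists moved in the direction of the leukocyte-shared tuft genes, Spib, Plcg2, Lrmp and the kinases, and the part of these cells in their values was not tested.

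Genes of enteric neurons and glia, like the summed tuft cell genes, were lowest in the HFD libraries. All 12 were tested, with none at 0, and their sum was 71.1 to 182 FPKM in control, 40.2 to 44.1 in HFD and 72.9 to 148 with the bacterium. In HFD 4 of 12 were lower than in control (Gfap, Tubb3, Prph and Uchl1), beside 9.11% of all genes tested. With the bacterium 5 of 12 were higher than in HFD (Gfap, Tubb3, Uchl1, S100b and Snap25), beside 4.54%. Uchl1 was at 54.3, 34.7 and 20.7 FPKM in control, 12.3, 11.6 and 13.5 in HFD, and 52.0, 22.2 and 42.6 with the bacterium. Dclk1 and Avil are also known from neurons, and the part of nerve tissue in their values was not tested. The 8 megakaryocyte and platelet genes, cells that share Gfi1b, summed to 9.47 to 14.9 FPKM in control, 20.3 to 27.0 in HFD and 8.74 to 15.6 with the bacterium, with Gp1bb at 0 in every library. Of the 3 tested, Pf4 was higher and Itga2b lower in HFD than in control, beside 10.6% higher and 9.11% lower over all genes tested. Itga2b averaged 0.252 ± 0.0917 FPKM in HFD and 0.956 ± 0.269 in control, so it passed the filter only through the other groups. Its lower level in HFD is therefore a description. Pf4 alone averaged 18.2 FPKM in HFD, where the 8 genes summed to 23.2 on average. The 7 erythroid genes, of which 4 were tested and 0 called by limma in any comparison (2, 0 and 1 at an unadjusted p below 0.05 for HFD against control, the bacterium against HFD and the bacterium against control), summed to 57.8 to 115 FPKM in control, 19.9 to 51.7 in HFD and 21.7 to 61.8 with the bacterium. The part of these cells in the values of Gfi1b was not tested.

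**Figure D5:**
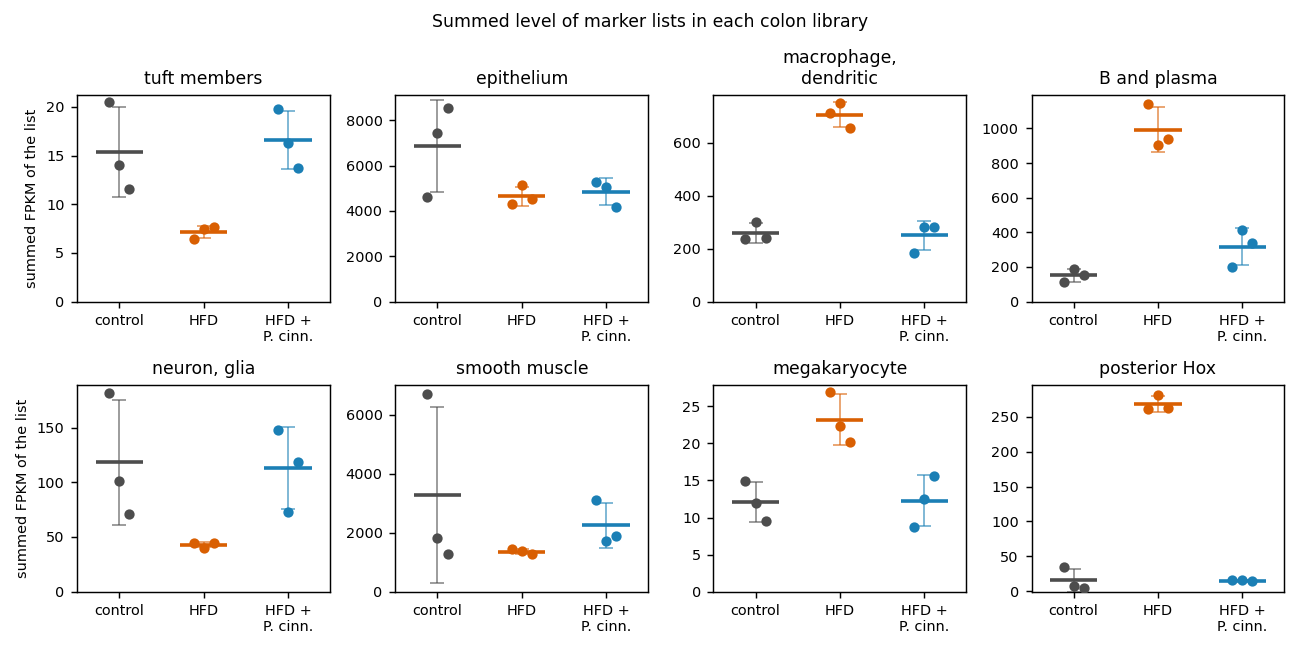
Summed FPKM of each marker list per library (vertical axis, a separate linear scale per panel); points are libraries, horizontal bars means, error bars SD. HFD libraries lie below all others for the tuft cell genes and for neuron and glia genes, and above all others for macrophage, B cell, megakaryocyte and posterior Hox genes. The megakaryocyte sum in HFD, 23.2 FPKM on average, was mostly Pf4 (18.2 FPKM), and Itga2b was lower in HFD than in control.

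The circuit that links tuft cells to type 2 immunity was tested for 13 of its 17 genes. In HFD against control Il33, Cysltr1 and Clca1 were higher and Retnlb, Il4ra and Il1rl1 lower, 3 in each direction, beside 10.6% higher and 9.11% lower over all genes tested. With the bacterium against HFD Retnlb was higher and Clca1 and Il17ra lower, beside 4.54% and 7.6%. Retnlb, a goblet cell protein induced by type 2 cytokines, was the most variable of them, at 649 ± 711 FPKM in control, 15.2 ± 11.8 in HFD and 260 ± 238 with the bacterium (log2 differences -5.02, SE 0.93, limma adjusted p = 0.0072, and 3.82, SE 0.93, limma adjusted p = 0.031). Il33, an alarm cytokine of stromal and epithelial cells, had 2.70 ± 0.364 FPKM in HFD, 0.890 ± 0.379 in control and 2.41 ± 1.18 with the bacterium, and HFD minus control was 0.98 (SE 0.26, limma adjusted p = 0.032). Clca1, a goblet cell secretory protein, had 456 ± 24.7 FPKM in HFD, 167 ± 79.8 in control and 151 ± 35.6 with the bacterium. Il9 was at 0 in all libraries, and Il5, Il13 and Gata3 did not pass the filter.

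The genes whose pattern over the 9 libraries was most like that of Trpm5 or Dclk1 were sought among 12353 annotated genes of at least 1 FPKM on average, by the root mean square difference of log2 values centred on each gene's own mean. For Trpm5 they were Rnf11 (0.0863), Ids (0.0979) and Zbtb10 (0.107), where Trpm5 itself varied by 0.271 about its mean. For Dclk1 they were Ttyh1 (0.105), Metrn (0.105) and Slc29a4 (0.105), where Dclk1 varied by 0.323. Ttyh1, as an example, was at 1.96 ± 0.398 FPKM in control, 1.15 ± 0.228 in HFD and 2.58 ± 0.146 with the bacterium. Trpm5, Avil and Dclk1 also overlap genes on the opposite strand, Tssc4, Tsfm, and Gm21954 and Gm42609 respectively. Neither Tssc4 nor Tsfm was called in any comparison. For HFD minus control Tssc4 differed by -0.46 (SE 0.19) and Tsfm by -0.40 (SE 0.16), each at an unadjusted limma p of 0.037. For the bacterium minus HFD they differed by -0.13 and 0.009. The part of these genes in the values of Trpm5 and Avil was not tested.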

How the data were processed

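The authors deposited FPKM values of 9 libraries in 1 table. Alignment used HISAT2 2.0.5 on GRCm39, per the submitters' processing notes. What counted the fragments, on which annotation and whether by strand was not given in the sources used here. Symbols were taken from GENCODE M21 for 52093 of 54491 rows. Multiplying FPKM by M21 exonic length and depth gave whole fragments, within 0.01 of a whole number, for 98.2% to 98.5% of the 9373 to 11145 genes checked in a library (those under 50 fragments), and for 9 of the 10 tuft cell genes; Sh2d7 came out whole with another length. Counting intervals and floors cover counting error only.

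Genes that reached 0.5 FPKM in 3 or more libraries entered a fit of log2(FPKM + 1) with limma 3.58.1 in R 4.3.3, with a variance trend, all 9 libraries in 1 fit and no covariate. Benjamini-Hochberg adjustment ran over all 17907 genes and calls were made below 0.05. Genes below the filter got exact permutation tests on FPKM. The fit was tested on simulated data with 200 changed genes, all drawn from genes above the median control level. That test does not cover changes in genes at lower levels. All 10 tuft cell genes were named. Of 5 lists of other tuft cell genes and the type 2 list, genes called in any comparison could be named, at most 5 a list; Matk, Il1rl1, Il17ra and genes below the filter fall outside that rule and were named after their values were seen. The genes and lists were chosen with earlier results of these data known. Motifs were searched as exact letters. Alternatives covered pseudocount, filter, scaling, variance model, samples in the fit, replicate number and each library left out. Limma-voom on recovered fragments was added after seeing the data. Within groups libraries correlated at 0.928 to 0.978, and 0 identical values above 0 were shared by any pair.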

Additional observations from a re-analysis of the deposited data

How the results depend on the processing

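Over the 450 recalculated log2 differences of the tuft cell genes, 390 kept their direction and their side of the threshold, 41 lost a call in the same direction, 10 gained one and 9 changed sign. Called genes for HFD against control numbered 3535, and 1985 with the replicate block. For the bacterium against HFD they numbered 2174, and 1288 with the replicate block. For the bacterium against control the 198 calls became 15 with no filter, 302 with a filter of 1 FPKM, 46 with quantile normalization, 11 with TPM scaling, 377 without mitochondrial and immunoglobulin genes, 2 when the fit held the pair of groups alone, and 0 with the block (limma, 2401 at an unadjusted p below 0.05). The replicate numbers did not pair the samples (correlations of same-numbered deviations -0.156 to 0.187). With the block, Dclk1, Trpm5, Pou2f3 and Sh2d7 were not called between the HFD groups (limma adjusted p 0.055, 0.16, 0.12 and 0.075) and Avil was (0.046).

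Of the tuft cell genes, 5 were called for the bacterium against HFD, 2 with no filter, 3 with a filter of 1 FPKM (Pou2f3 and Gnat3 not tested there), 2 with TPM scaling, 3 without mitochondrial and immunoglobulin genes and 2 with the block. TPM scaling moved the median of all genes by 0.22 for HFD against control and made 78.2% of calls higher against 53.8%, and -0.18 for the bacterium against HFD, where 25% against 37.4% were higher. Removing mitochondrial and immunoglobulin genes gave 76.6% higher for HFD against control, and 76.7% against 23.7% for the bacterium against control. Leaving out 1 library gave 1612 to 4527 called genes and 1 to 2 tuft cell genes for HFD against control, 991 to 3603 and 0 to 6 for the bacterium against HFD, and 0 to 1187 and 0 for the bacterium against control. Control replicate 1, left out, gave the highest gene count of each comparison.

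Signs changed for Alox5, HFD minus control (0.086 with TPM scaling, 0.026 without mitochondrial and immunoglobulin genes, -0.199 to 0.030 leaving out 1 library), for Gnat3, HFD minus control (0.006 with the block), for Sh2d6, bacterium minus control (0.054 without mitochondrial and immunoglobulin genes, -0.339 to 0.198 leaving out 1 library), and for Pou2f3, bacterium minus control (-0.023 to 0.141). Gfi1b differences in FPKM, leaving out 1 library, spanned -0.079 to 0.225 for HFD minus control, -0.159 to 0.054 for the bacterium minus HFD and -0.148 to 0.156 for the bacterium minus control. The causes were not tested. Sh2d6 was called lower in HFD under 19 of 19 alternatives and Avil under 18. For the bacterium against HFD, Sh2d7 was called under 17 of 19, Sh2d6 under 16, Dclk1 under 12, Avil under 6, Pou2f3 under 5 of 18 and Trpm5 under 4 of 19. Depth limits Il25, Gfi1b, Gnat3 and Pou2f3, whose libraries hold 43 or fewer fragments each.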
